A study of Homo sapiens with 18 samples.

Results

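The 7 genes described here lie on a stretch of human chromosome 1 that was copied from mitochondrial DNA, out of 60666 Ensembl IDs in the deposited tables. They are 6 pseudogenes that read in the direction of the mitochondrial messenger RNAs they copy (MTND1P23, ENSG00000225972; MTND2P28, ENSG00000225630; MTCO1P12, ENSG00000237973; MTCO2P12, ENSG00000229344; MTATP6P1, ENSG00000248527; MTCO3P12, ENSG00000198744) and ENSG00000230021, a long noncoding RNA (lncRNA) gene that spans the stretch on the other strand. The members were taken by Ensembl ID, and the contrast of the 6 sense copies with the lncRNA belongs to that choice. The rule states no threshold, but the genes were selected on the deposited fold changes of these tables, which were known when it was written. The values are therefore given as a description, and nothing is inferred from the calls.

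RNA immunoprecipitation followed by sequencing was done in U373-MG, an established glioblastoma line. Cells carried, by retroviral transduction, an empty vector with an antibiotic resistance gene (control), wild-type ADAR3 with a FLAG tag (ADAR3 WT), or ADAR3 with the tag and a mutated R-domain (ADAR3 R-Mutant, here R-mutant). All cells, controls included, were irradiated with UV light at 150 mJ/cm2 and their medium held G418. Each of the 6 groups, made by 3 genotypes and 2 fractions (input RNA and FLAG IP), has 3 libraries, with no statement that these are separate cultures. The deposited errors measure the spread between libraries that the authors' model left, and this spread may be technical. Both forms of ADAR3 were expressed exogenously, in 1 cell line. The data are of bulk lysates, in which fewer cells with an RNA and less of it per cell cannot be told apart.

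Copies of mitochondrial DNA inserted into nuclear chromosomes are common in the human genome, and most are not known to be expressed. Both strands of the mitochondrial genome are transcribed from end to end. One transcript yields the ribosomal RNAs and nearly all messenger RNAs, while the other, read from the light strand, yields MT-ND6, several transfer RNAs and long stretches that are complementary to the messenger RNAs and are normally degraded. Reads from either mitochondrial transcript can match a nuclear copy of the same sequence, on the strand that reads the same way. ADAR3 is a brain-enriched protein of the ADAR family with domains that bind double-stranded RNA and an arginine-rich R-domain that can bind single-stranded RNA.

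The order and spacing of the mitochondrial genes are kept on chromosome 1. In the RefSeq gene table for GRCh38.p14, the stretch runs from chr1:629062 to chr1:634922, which is 5861 bp. For 5 of the copies, the start on chromosome 1 minus the start of the mitochondrial gene lay between 625169 and 625171, so the genes are laid out in both genomes to within 2 bp. MTND2P28, MTCO1P12, MTCO2P12 and MTATP6P1 had 100%, 100%, 99.7% and 100% of the length of mitochondrial ND2, COX1, COX2 and ATP6. ND1 and ND2 are subunits of respiratory complex I, COX1 to COX3 of complex IV, and ATP6 of the ATP synthase. MTND1P23 is cut short, with 379 bp or 39.6% of the length of ND1, and MTCO3P12 has 547 bp or 69.8% of the length of COX3. By the spacing of the other 5 copies, MTND1P23 begins at the position of base 586 of ND1. Its annotated end then falls beyond that of ND1, so this base is an estimate. MTATP8P1, a further copy at chr1:633535-633741, is not one of the genes described. The table holds all 6 copies by symbol and no entry for ENSG00000230021.

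**Figure D1:**
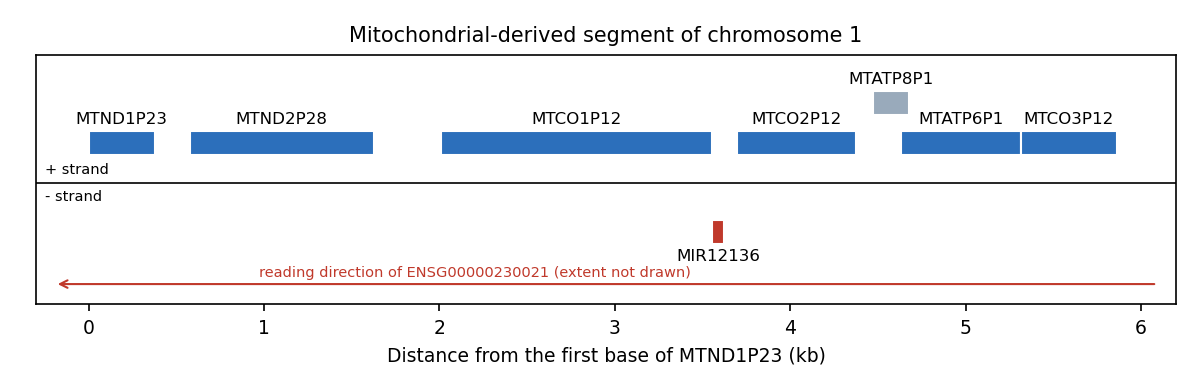
Map of the mitochondrial-derived stretch of chromosome 1 by distance from the first base of MTND1P23 (kb), with + strand copies above the line and - strand features below it. The 6 sense copies (blue) follow each other over 5861 bp, with MTATP8P1 in grey and MIR12136 in red on the other strand.

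The sequences below are features that RefSeq places on the minus strand of the stretch or at its edge, opposite to the copies, on GRCh38.p14. Neither is taken from ENSG00000230021, whose extent and exons were not looked up here, so that it spans the stretch is taken from the choice of members. The first is the window around the start of LOC101928626, a RefSeq lncRNA at chr1:627380-629009. The tables do not link it to ENSG00000230021. It reads away from the copies, so the part of the window antisense to MTND1P23 lies before its start and is no part of its RNA. Capitals mark the 198 bases of the window that run antisense to the beginning of MTND1P23, and lower case the 102 bases beyond that copy.
LOC101928626 start window, chr1:628960-629259: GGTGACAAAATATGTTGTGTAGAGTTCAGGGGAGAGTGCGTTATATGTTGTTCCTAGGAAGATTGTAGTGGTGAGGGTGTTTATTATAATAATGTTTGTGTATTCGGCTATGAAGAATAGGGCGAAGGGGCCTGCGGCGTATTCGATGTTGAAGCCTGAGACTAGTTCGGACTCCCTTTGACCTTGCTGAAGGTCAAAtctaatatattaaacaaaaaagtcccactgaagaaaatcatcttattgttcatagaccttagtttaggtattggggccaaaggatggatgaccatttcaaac
The part inside the copy is 44.4% G or C and the part outside it 33.3%. Of 35116 RefSeq start windows, 1 held a 25-base stretch of the part inside the copy on either strand, which was this window itself. That hit was fixed by the choice of query. Sequence outside these windows was not searched, so the count does not show the stretch to be unique.

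The second is MIR12136, annotated as a microRNA between MTCO1P12 and MTCO2P12. It takes the place of mitochondrial TRNS1, a serine transfer RNA gene read from the light strand, with the start on chromosome 1 minus the mitochondrial start at 625169. Capitals mark the mature microRNA in the hairpin, and its seed (bases 2 to 8) in the mature form.
MIR12136 hairpin, chr1:632615-632685: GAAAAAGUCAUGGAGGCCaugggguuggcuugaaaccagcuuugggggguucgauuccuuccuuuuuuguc
hsa-miR-12136, chr1:632668-632685: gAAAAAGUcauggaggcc
The minus strand of the stretch thus has the direction of the mitochondrial light-strand transcript, and the sense copies have that of the messenger RNAs. No value for MIR12136 was analysed here.

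The sense copies differed widely in level. The level is the mean normalized count, which the authors' tables give over the libraries of each model, divided here by the RefSeq gene length. MTATP6P1 had 38343 per kb in the authors' deposited table of input RNA, 104 times the level of MTCO1P12, which was 367 per kb. The other 4 copies lay between 37.3 per kb for MTND1P23 and 73.5 per kb for MTCO2P12 in the same authors' deposited table. MTATP6P1 alone made up 97.4% of the summed mean of the 6 copies in input. In the 3 IP tables it made up 96.2% to 96.5%. It ranked 105th of 20411 tested genes by mean in input, before any division by length, and so was among the most abundant RNAs counted.

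MTATP6P1 and MTCO1P12 came first and second in all 4 tables. Below them the order was not kept. MTND1P23 was the third in the 3 IP tables and last in the input table, and the levels of the lowest 4 copies carry no error in the deposited tables by which neighbours could be told apart. A copy and its mitochondrial original can share reads. The sources used here do not say how reads that match both were counted, so these levels, that of MTATP6P1 included, cannot be ascribed to transcription on chromosome 1.

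**Figure D2:**
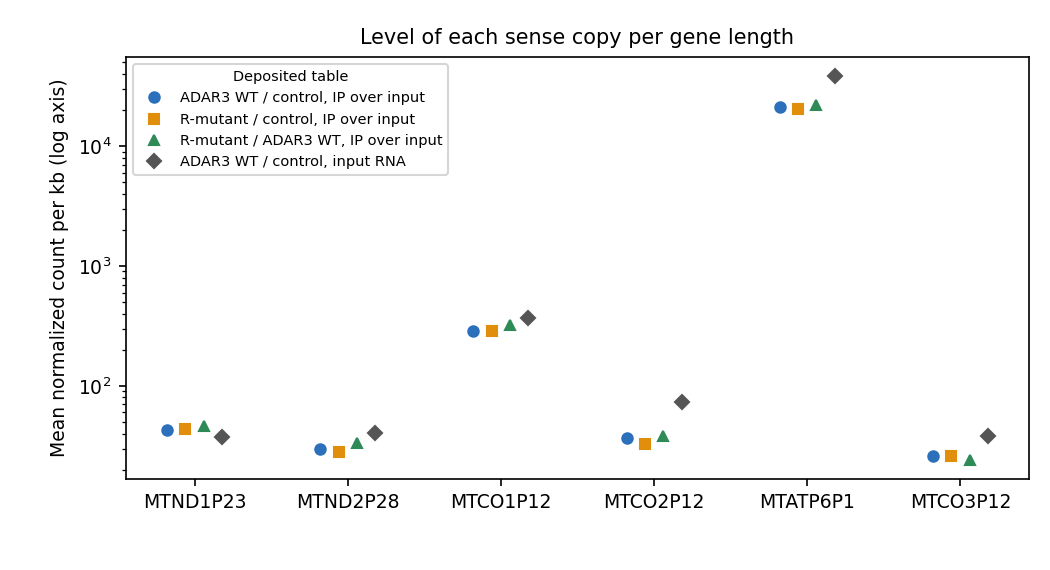
Mean normalized count per kb of RefSeq gene length (log axis) of the 6 sense copies, with 1 point for each of the 4 deposited tables, which were normalized separately. MTATP6P1 stands at 20506 to 38343 per kb and MTCO1P12 at 285 to 367 per kb, while the other copies lie between 24.2 and 73.5 per kb.

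IP enrichment of reads counted for the lncRNA was higher with ADAR3 WT than with the empty vector. That of reads counted for the sense copies was not called different. IP enrichment here compares 2 genotypes by their ratios of IP to input RNA, on the log2 scale. ENSG00000230021 had a log2 fold change of 2.50 ± 0.23 (standard error) at a mean normalized count of 2154 in the authors' deposited table. This is 5.65-fold, with a 95% interval of 4.12 to 7.75-fold. By fold over standard error its rank was 3 of 21121 tested genes. By fold its rank was 11 among the 13617 whose mean was 50 or more. Reads of the mitochondrial light-strand transcript can match the minus strand of the stretch, which the lncRNA is taken to span. How such reads were counted is not given in the sources used here. Whether the lncRNA values of any comparison come from RNA made on chromosome 1 was not tested.

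The 6 sense copies had log2 fold changes between -1.18 and 0.21 in the same comparison, with a median of -0.28, beside a median of 0.01 over all genes tested. MTCO1P12 was at -0.04 ± 0.33 and MTATP6P1 at -0.47 ± 0.34 in the authors' deposited table. These are the 2 copies whose mean was 50 or more, and the rest had means between 14.2 and 30.8. MTND2P28 was lowest, at -1.18 ± 0.76, and MTCO2P12 highest, at 0.21 ± 0.87, in the authors' deposited table. MTND1P23 was at -0.11 ± 1.13 and MTCO3P12 at -0.44 ± 1.01 in the authors' deposited table. The 95% intervals of all 6 held 0.

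The lncRNA lay 2.78 above the median of the sense copies on the log2 scale, or 6.85-fold. The 95% intervals of 5 of the 6 copies lay wholly below that of the lncRNA. The exception was MTND1P23, whose interval reached 2.11 while that of the lncRNA began at 2.04. All 7 members had a deposited adjusted p and were thus tested. By the normal test of fold over standard error with Benjamini-Hochberg adjustment at 0.05, 1 of 7 members was called, the lncRNA, beside 14.1% of all genes in either direction and 5.99% called higher. Only for MTCO1P12 did the interval exclude a 2-fold difference, which 34.3% of all genes did. For the other 5 copies a 2-fold difference in at least 1 direction was not excluded, and the 4 copies with a mean under 50 had standard errors of 0.76 to 1.13.

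**Figure D3:**
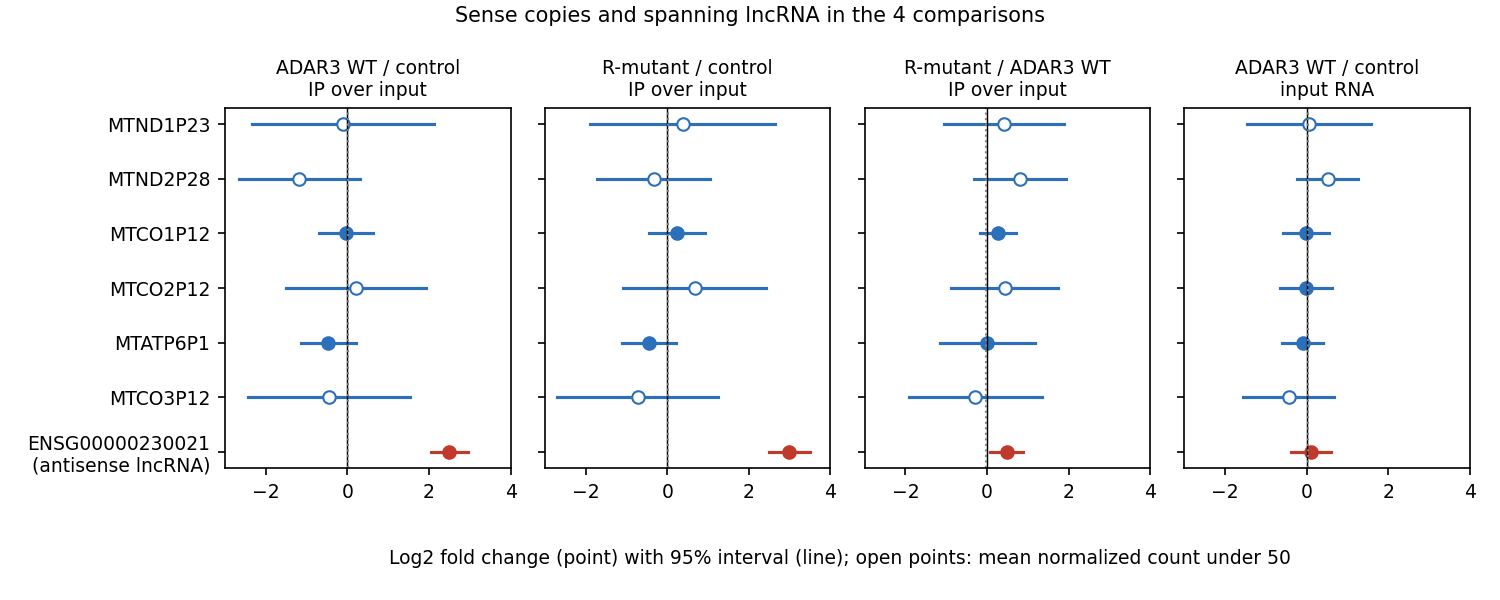
Log2 fold change (points) with 95% intervals (lines) of the 6 sense copies (blue) and the antisense lncRNA (red) in the 4 comparisons, with open points for a mean normalized count under 50 and a dotted line at the median of all genes tested. The lncRNA stands at 2.50 and 3.00 in the comparisons with control, while the 6 sense copies lie between -1.18 and 0.68 there with intervals that hold 0.

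The R-mutant, set against the same control libraries, had values of the same order. ENSG00000230021 had a log2 fold change of 3.00 ± 0.26 at a mean of 2594 in the authors' deposited table, which is 7.98-fold with a 95% interval of 5.61 to 11.3-fold. Its rank by fold over standard error was again 3, of 21120 tested genes, and by fold it was 9 among the 13515 whose mean was 50 or more. Its rank by fold was 2 among the 6130 genes whose mean was 1000 or more.

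For the sense copies, 3 values lay above 0 and 3 below, with a median of -0.04, beside 0.03 over all genes tested. MTCO1P12 was at 0.24 ± 0.35 and MTATP6P1 at -0.44 ± 0.34 in the authors' deposited table. MTCO2P12 was highest at 0.68 ± 0.89 and MTCO3P12 lowest at -0.72 ± 1.00 in the authors' deposited table. MTND1P23 was at 0.38 ± 1.16 and MTND2P28 at -0.33 ± 0.70 in the authors' deposited table. All 6 of these intervals held 0.

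The lncRNA lay 3.04 above the median of the copies on the log2 scale, or 8.22-fold. As with ADAR3 WT, the interval of MTND1P23 was the only one among the copies that overlapped the lncRNA's. The normal test called 1 of 7 members, the lncRNA, beside 13.3% of all genes in either direction and 5.38% called higher. Both comparisons use the control libraries, so the R-mutant values are no second support for those of ADAR3 WT.

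**Figure D4:**
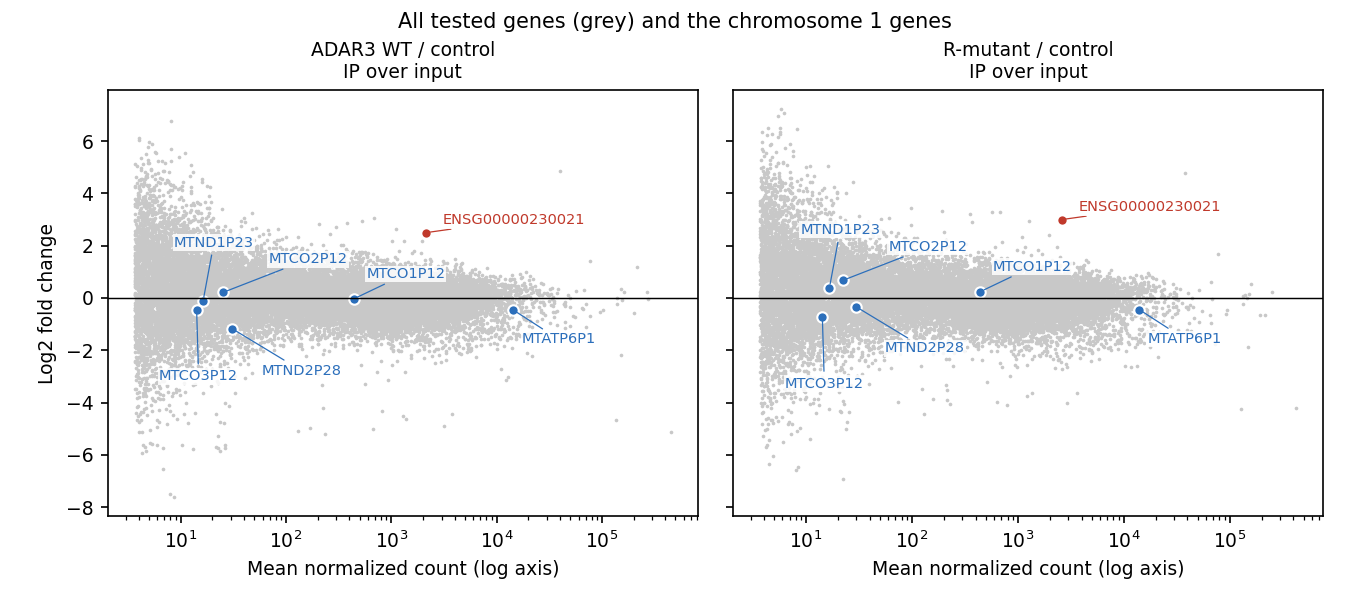
Log2 fold change of IP enrichment against mean normalized count (log axis) for all tested genes (grey), the 6 sense copies (blue) and ENSG00000230021 (red), for ADAR3 WT over control and R-mutant over control. The lncRNA stands apart from most genes of similar mean at 2.50 and 3.00, and the copies lie among the grey points.

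The direct comparison asks whether enrichment depends on the R-domain. For R-mutant over ADAR3 WT, ENSG00000230021 had a log2 fold change of 0.48 ± 0.21 at a mean of 4201 in the authors' deposited table, and it did not pass the adjusted test. Its 95% interval of 1.05 to 1.86-fold lay above 1 and excluded a 2-fold difference. The intervals of 55.2% of all genes excluded one. MTCO1P12 was at 0.27 ± 0.23, with an interval that also excluded a 2-fold difference, and MTATP6P1 at 0.01 ± 0.59 in the authors' deposited table. The other 4 copies lay between -0.29 for MTCO3P12 and 0.81 for MTND2P28. The median of the 6 copies was 0.34, beside -0.02 over all genes tested, and the lncRNA was 0.14 above it. That distance was 0.19 from a mean of the copies weighted by their errors and 0.34 from the 2 copies whose mean was 50 or more.

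The normal test called 0 of 7 members here, beside 0.00428% of all 23385 genes tested. At an unadjusted p under 0.05 it had 1 member, the lncRNA, beside 0.624% of all genes. That share is far below the nominal level of 0.05. The test was thus conservative in this comparison, and a member not called is weak evidence of no difference. When fold over standard error was rescaled to its spread across genes, 1 of 7 members passed, the lncRNA, with an adjusted p of 0.0433, beside 0.316% of all genes. Without rescaling the lncRNA was not called, nor at a stricter threshold, with centring or with other filters on the mean. It was chosen with these fold changes known, so nothing is inferred from that call. The error of MTATP6P1 was wide for so abundant an RNA. Among the 6645 genes whose mean was 1000 or more, the median standard error was 0.19, and 0.376% had one larger than that of MTATP6P1.

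In input RNA no member was called between ADAR3 WT and control. ENSG00000230021 had a log2 fold change of 0.10 ± 0.25 at a mean of 1192 in the authors' deposited table, an interval of 0.76 to 1.51-fold. MTATP6P1 was at -0.11 ± 0.25, MTCO1P12 at -0.03 ± 0.29 and MTCO2P12 at -0.02 ± 0.32 in the authors' deposited table. A 2-fold difference was excluded for these 3 copies and the lncRNA, and for 66.8% of all genes. MTND2P28 was highest, at 0.51 ± 0.38, and MTCO3P12 lowest, at -0.45 ± 0.57, in the authors' deposited table, while MTND1P23 was at 0.06 ± 0.77. The lncRNA lay 0.13 above the median of the copies, against 2.78 and 3.04 in the IP comparisons with control. The normal test called 0 of 7 members, beside 0.289% of the 20411 genes tested. At an unadjusted p under 0.05 there were also 0 of them, beside 2.92% of all genes, and the authors' adjusted p gave 0, so these counts do not set the members apart from other genes.

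The mean normalized counts can also be set side by side, in tables that were normalized separately. Each mean was taken to cover all libraries of its model, input and IP, so these are not ratios of IP to input. They come from the same libraries as the fold changes and are no further support for them. The mean of ENSG00000230021 in the table of IP enrichment for ADAR3 WT over control was 1.81 times that in the input table. The same ratio was 0.55 for MTATP6P1, 0.50 for MTCO2P12, 0.78 for MTCO1P12, 0.73 for MTND2P28, 0.68 for MTCO3P12 and 1.15 for MTND1P23, with a median of 0.85 over the 13411 genes whose mean was 50 or more in each table. From that IP table to the table of R-mutant over ADAR3 WT, which by its name has no control, the mean of the lncRNA was 1.95 times as high. The 6 copies ranged from 0.94 to 1.13 times, and the median over 13548 genes was 1.06.

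The authors' own adjusted p, from a likelihood ratio test that covers more terms than the fold change printed beside it, called more members. In ADAR3 WT over control it was under 0.05 for 3 of 7, which were the lncRNA, MTCO2P12 and MTATP6P1, beside 43.0% of all genes. In R-mutant over control it called the same 3, beside 40.8%. In R-mutant over ADAR3 WT it called all 7, beside 51.1%. For MTATP6P1 the adjusted p was 3.36e-20 in the authors' deposited table of ADAR3 WT over control, where its fold over standard error was only -1.36. These calls therefore do not measure the fold change between genotypes.

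The genes whose pattern was most like that of the lncRNA were sought over the 4 log2 fold changes, among 13281 genes whose mean was 50 or more in every table. Likeness was the Euclidean distance over these 4 values, which share libraries. The nearest was ENSG00000235609 at a distance of 0.26, with 2.33 for ADAR3 WT and 2.80 for R-mutant over control, 0.46 between the genotypes with ADAR3 and 0.11 for input in the authors' deposited tables. ENSG00000210144 followed at 0.29, with 2.69, 3.21, 0.49 and 0.14 in the same order in the authors' deposited tables. Next came ENSG00000210151 at 0.38, ENSG00000210107 at 0.56 and ENSG00000210135 at 0.60. For ADAR3 WT over control they had 2.65, 2.92 and 2.62 in the authors' deposited table. In all, 3 genes lay within 0.5 and 15 within 1 of the lncRNA. Around the median of the sense copies the same distances held 2600 and 9060 genes, so that pattern is a common one. The files do not pair these IDs with names, so whether any of them is a mitochondrial gene was not tested.

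The libraries were made with a strand-specific kit, but whether the counting used strand is not given in the sources used here. If it did not, reads of a copy and of the antisense lncRNA cannot be told apart by strand. Markers of the labelled cell type, the expressed ADAR3 and the mitochondrial originals were not checked because the IDs could not be paired with symbols. Values per library were not analysed here.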

How the data were processed

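Reads were processed by the submitters with STAR 2.7.7a, featureCounts and DESeq2 on GRCh38, per the submitters' processing notes. For the annotation, the strand setting, reads with several matches and the model formula, the sources used here give nothing. The values came from 4 deposited tables. Per the file headers, each gives a mean signal (mean normalized count), a log2 fold change and its standard error on the log2 scale, a test statistic (a score), and p-values with adjusted p-values. The input table's 6 per-library columns match no label and were not used, so depth per library is unknown.

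The statistic of the 3 IP tables is a likelihood ratio with 7 degrees of freedom, since its chi-square p matched the deposited p-values to within 1% for 100% of the IDs compared. Each log2 fold change was therefore divided by its standard error and tested against a normal distribution (two-sided), with Benjamini-Hochberg adjustment over all genes with a deposited adjusted p. A fold change of an IP table was taken to be the first genotype's ratio of IP to input divided by the second's. The labels do not state this. The basis is the name of each table, and that ADAR3 WT over control fell with the input fold change (slope -0.88) among 16595 genes whose input mean was under 10. R-mutant over ADAR3 WT rose with it less steeply (slope 0.44) among 15782 such genes. R-mutant over control was not checked in this way.

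The members, the lists and the rule for named genes were chosen with earlier results of these data known. The rule covers all members, extremes of the lists, and nearest patterns, of which those of the lncRNA are printed by ID. The lists of mitochondrial genes, other nuclear copies and cell type markers were not run: the RefSeq table (59792 genes) pairs 0 genes with an Ensembl ID, and the symbols of the 6 copies came with the choice of members. Alternatives were the authors' adjusted p, a stricter threshold, 2 mean filters, centring and rescaling. The software was Python 3.11.15 with pandas 2.3.3, numpy 2.4.6, statsmodels 0.14.6, scipy 1.17.1 and matplotlib 3.10.9.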

Additional observations from a re-analysis of the deposited data

How the results depend on the processing

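No paired analysis was possible because no column of a single library could be matched to a label, and for the same reason no replicate could be left out. The comparison of the copies with their mitochondrial originals was not run, since no table gives the IDs of the latter. With the authors' adjusted p, which does not test the fold change alone, the members called were 3 for ADAR3 WT over control, 3 for the R-mutant over control and 7 between both ADAR3 forms. Rescaling to the robust spread called 1 in R-mutant over ADAR3 WT, the lncRNA, beside 0.316% of all genes. An adjusted p under 0.01, a mean of at least 50, no filter on the mean and centring on the median of all genes left the counts of members called as they were in all 4 comparisons. For single members, 12 of 153 combinations of member, comparison and alternative gained a call, and 0 lost one or changed sign while called. Apart from the rescaled value of the lncRNA in R-mutant over ADAR3 WT, these gains all came from the authors' adjusted p. They do not show differences in fold change. The distance of the lncRNA from the copies was 2.75 to 2.79 in ADAR3 WT over control and 3.04 to 3.10 in R-mutant over control under a weighted mean or with bright copies alone. In R-mutant over ADAR3 WT it ran from 0.14 to 0.34. Means under 50 limit MTND1P23, MTND2P28 and MTCO3P12 in all 4 tables and MTCO2P12 in the 3 IP tables.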
